A study of Homo sapiens with 2 samples.

Results

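The miR-25 family (miR-25, miR-32, miR-92a, miR-92b and miR-363) comprises miRNAs whose guide strands carry the same seed. Its 7 members were taken by name from the 2588 mature miRNAs counted in each library. They were the 5 guide strands hsa-miR-25-3p, hsa-miR-32-5p, hsa-miR-92a-3p, hsa-miR-92b-3p and hsa-miR-363-3p, and the 2 passenger strands hsa-miR-25-5p and hsa-miR-92b-5p, named below without the species prefix. The bait library held the small RNAs that MDA231 lysate left on an amylose resin carrying the long non-coding RNA MACC1-AS1 fused to MS2 hairpins (RNA substrate lncRNA MACC1-AS1-MS2), and the no-bait library those left on resin with no RNA substrate. MDA231, also written MDA-MB-231, is a triple-negative breast cancer line, and both groups used parental cells grown in DMEM with fetal bovine serum. In both, per the labels' protocols, MBP-MCP, in which the MS2 coat protein (MCP) is joined to maltose-binding protein (MBP), was the link to the resin, and bound complexes were released with maltose. The comparison asks which miRNAs are retained with the tagged RNA. Since the no-bait resin carried no RNA substrate, retention by MACC1-AS1, by the MS2 hairpins and by any RNA on the resin cannot be told apart. Each group held 1 library, so no difference could be checked against replicates and none has a p-value.

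A miRNA acts as a guide bound to an Argonaute protein, and it finds its targets mainly through the seed, the bases near its 5′ end. When a hairpin is processed, one arm is usually kept as the guide and the other, the passenger strand, is mostly degraded. Members of this family are known to repress the pro-apoptotic gene BCL2L11 (BIM). miR-92a comes from the miR-17-92 cluster, an oncogenic cluster of proliferating cells, and miR-25 from its paralog in the replication gene MCM7.

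The sequences of all 7 members are shown because the shared and the differing bases decide which reads can be told apart. They are RefSeq mature sequences (GRCh38.p14), written 5′ to 3′ with the seed, bases 2 to 8, in capitals.
miR-92a-3p: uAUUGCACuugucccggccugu
miR-92b-3p: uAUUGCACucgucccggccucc
miR-25-3p: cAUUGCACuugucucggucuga
miR-32-5p: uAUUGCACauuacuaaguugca
miR-363-3p: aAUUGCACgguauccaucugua
miR-25-5p: aGGCGGAGacuugggcaauug
miR-92b-5p: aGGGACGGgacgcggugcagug

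The 5 guide strands were 22 nt long and shared the seed AUUGCAC, while the 2 passenger strands had seeds of their own. miR-92a-3p and miR-92b-3p were the closest pair, with 19 of 22 bases identical. Counted from the 5′ end with the base of miR-92a-3p first, they differed by U10C, G21C and U22C. miR-25-3p shared 18 of 22 bases with miR-92a-3p (C1U, U14C, U18C and A22U, base of miR-25-3p first). miR-32-5p shared 11 of 22 bases with miR-92a-3p. The sources used here do not say how reads that fit more than one miRNA were counted, so the values of miR-92a-3p, miR-92b-3p and miR-25-3p carry an uncertainty that their intervals leave out.

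The hairpins lie at 6 loci (GRCh38, hosts from GENCODE 29). MIR25 lies in an intron of MCM7 on the minus strand of chromosome 7 (100093560 to 100093643), and MIR32 in an intron of TMEM245 on the minus strand of chromosome 9 (109046229 to 109046298). MIR92A1 overlaps an exon of MIR17HG, the host transcript of the miR-17-92 cluster, on the plus strand of chromosome 13 (91351314 to 91351391). A copy with the same mature sequence, MIR92A2, lies on the minus strand of the X chromosome (134169538 to 134169612) beside MIR363 (134169378 to 134169452), both in exons of AC002407.1. The counts of miR-92a-3p therefore cannot be divided between chromosome 13 and the X chromosome. MIR92B overlaps an exon of the antisense transcript AC234582.1 on the plus strand of chromosome 1 (155195177 to 155195272).

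Total miRNA counts were 1047269 with bait and 269716 without, and the shallower no-bait library sets how wide most intervals are. Levels are given as RPM, the count per 1000000 miRNA counts of the library, and all intervals are exact 95% intervals that cover counting error only. A higher or lower share does not give the amount recovered. The libraries come from lysate of the same parental line and differ in the RNA on the resin, so a ratio measures no change in the cells. The 5 fixed markers of basal and mesenchymal-like breast lines summed to 36.3% of counts with bait and 50.2% without. Most of both sums was miR-100-5p, at 29.6% with bait and 45.3% without. The others went different ways, with miR-125b-5p called higher, miR-222-3p called lower and miR-221-3p called neither. miR-31-5p, at 9 counts with bait and 4 without, was too rare to test, so 4 of the 5 markers were tested. The 6 epithelial markers, which are low in this line, held 0.0181% with bait (190 counts) and 0.0111% without (30 counts). Most of both sums was miR-200b-3p, with 144 counts with bait and 28 without, called neither. miR-200c-3p had 20 with bait and 1 without, miR-200a-3p 18 and 1, and miR-429 8 and 0. miR-141-3p and miR-205-5p had 0 counts in both.

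The family took almost the same share of each library, but its members did not move together. All members summed to 14.6% of counts with bait (152394 counts, 14.5% to 14.6%) and 14.8% without (39886 counts, 14.7% to 14.9%). The bait over no-bait ratio of the sum was 0.984 (0.973 to 0.995), and 1.09 with TMM factors or 1.32 with DESeq2 size factors. A miRNA was tested where both libraries together held at least 30 counts, and called where the ratio was at least 2 or at most 0.5 and its interval excluded 1. Of the 7 members 6 were tested, and miR-363-3p was too rare. Of these 1 was higher with bait, against 39.4% of all 231 tested miRNAs, and 3 were lower, against 26.8% of all tested. The minimum is set on both libraries together, for members and all miRNAs alike. miR-32-5p (723 counts with bait, 5 without) and miR-25-5p (3 with bait, 54 without) reached it through the library where they were high. These counts of calls are therefore a description and no support for a shift of the family. With DESeq2 size factors 1 member was higher and 1 lower of the 6 tested, beside 114 higher and 44 lower of all 231 tested miRNAs. The share of higher among all called miRNAs was then 72.2% in place of 59.5%. With no count filter 95 were higher and 100 lower of 715 miRNAs. A count of 0 is set at 3 counts, and the no-bait library is shallower, so a rare miRNA passes the lower call more easily. These counts therefore do not show whether the excess of higher ones depends on the minimum. The median log2 ratio was -0.74 over the 6 tested members and 0.55 over all tested miRNAs, and with 6 members neither the counts nor the median sets the family apart.

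**Figure D1:**
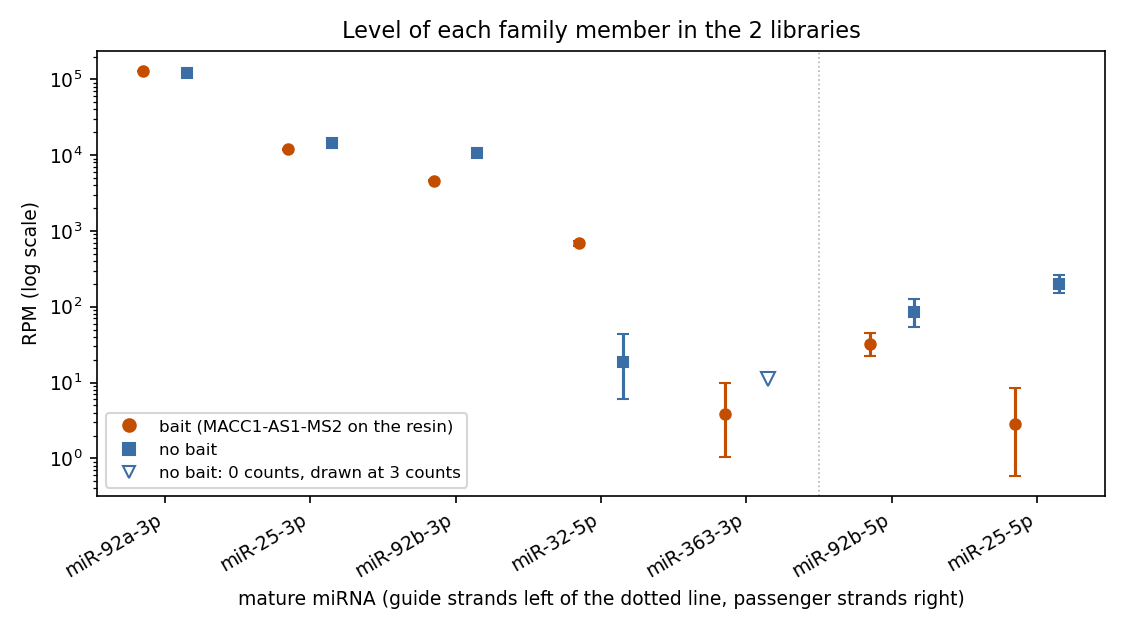
RPM of each member on a log axis with bait (circles, left of each pair) and without bait (squares); bars are exact 95% counting intervals, and the open triangle marks 0 counts of miR-363-3p drawn at 3 counts (11.1 RPM). miR-92a-3p lay at about the same level in both libraries, while miR-32-5p stood at 690 RPM with bait against 18.5 RPM without and miR-25-5p at 2.86 RPM with bait against 200.2 RPM without.

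miR-92a-3p, the guide strand of the miR-17-92 cluster member, accounted for most of the family. It had 134304 counts with bait (128242 RPM, 127602 to 128884) and 33027 without (122451 RPM, 121216 to 123694), and ranked 3rd in abundance with bait and 2nd without. Its ratio was 1.05 (1.03 to 1.06), which passed neither call. The sign of this small difference depended on the scaling, since the ratio was 0.958 when the 5 most abundant miRNAs were kept out of the totals. Blood cells are also rich in miR-92a-3p and miR-25-3p. The 8 blood cell markers held 452 counts with bait (0.0432%) and 233 without (0.0864%), with miR-144-3p, miR-144-5p, miR-223-3p and miR-150-5p at 0 in both libraries. Most of both sums was miR-486-5p, a miRNA of red cells, with 386 counts with bait and 214 without (ratio 0.465, 0.392 to 0.552), which is called lower. miR-142-5p had 45 counts with bait and 9 without, miR-142-3p 17 with bait and 0 without, and miR-451a 4 with bait and 10 without. The part of blood cell RNA in the ratio of miR-92a-3p was not tested.

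miR-25-3p, the guide strand from the MCM7 intron, was the next most abundant. It had 12485 counts with bait (11921 RPM) and 3926 without (14556 RPM), and ranked 11th in each library. Its ratio of 0.819 (0.790 to 0.849) passed neither call, and was 1.10 with DESeq2 size factors. Relative to miR-92a-3p, which needs no scaling between libraries, miR-25-3p was 1.28-fold lower with bait (1.23 to 1.33).

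miR-92b-3p, the member closest in sequence to miR-92a-3p, was lower with bait. It had 4841 counts with bait (4622 RPM) and 2851 without (10570 RPM), at a ratio of 0.437 (0.417 to 0.458), and ranked 27th with bait and 13th without. DESeq2 size factors put the ratio at 0.586, where the call is lost. Relative to miR-92a-3p the fall was 2.39-fold (2.28 to 2.51), for mature sequences that differ at 3 bases.

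miR-32-5p, a guide strand made apart from the large clusters, was the member that was higher with bait. It had 723 counts with bait (690 RPM, 641 to 743) and 5 without (18.5 RPM, 6.02 to 43.3), at a ratio of 37.2 (15.9 to 115). It ranked 54th with bait and 207th without. The width of the interval comes from the 5 counts without bait. Relative to miR-92a-3p it was 35.6-fold higher (15.2 to 109.9).

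miR-363-3p, the guide strand from the X chromosome cluster, was close to absent. It had 4 counts with bait (3.82 RPM) and 0 without, where 3 counts, the limit that a count of 0 allows, are 11.1 RPM. A difference in miR-363-3p was not detectable at this depth.

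The make-up of the 5 guide strands is a description that does not depend on the scaling. miR-92a-3p formed 88.2% of their summed counts with bait (88.0% to 88.3%) and 83.0% without (82.6% to 83.3%). miR-25-3p formed 8.19% (8.06% to 8.33%) with bait and 9.86% (9.57% to 10.2%) without, and miR-92b-3p 3.18% (3.09% to 3.27%) with bait and 7.16% (6.91% to 7.42%) without. miR-32-5p formed 0.475% (0.441% to 0.510%) with bait and 0.0126% (0.00408% to 0.0293%) without. The order of the guide strands by abundance was the same in both libraries. The intervals cover counting error only, so a gap between them does not show that other libraries would differ in the same way. Since the shares add to a whole, a rise of one lowers the others.

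**Figure D2:**
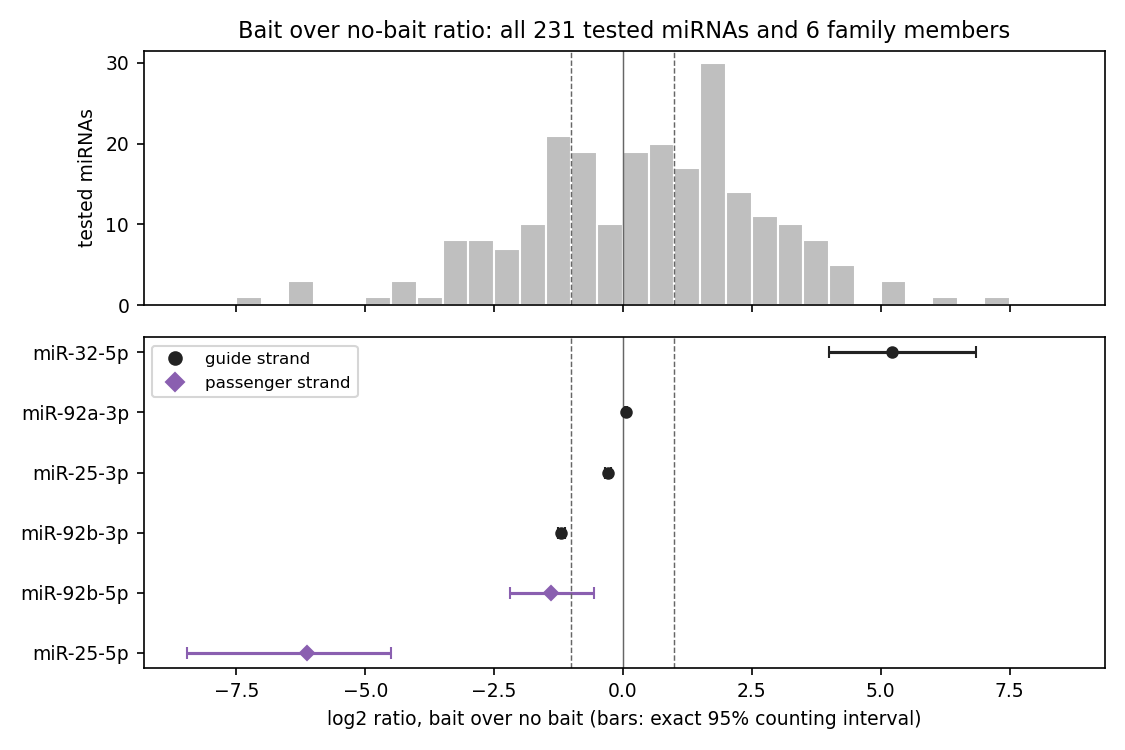
The upper panel counts the 231 tested miRNAs by log2 ratio of bait over no bait, and the lower panel shows the 6 tested members with exact 95% counting intervals; dashed lines mark 2-fold. miR-32-5p at a log2 ratio of 5.22 and miR-25-5p at -6.13 lie in opposite tails, with miR-92a-3p and miR-25-3p inside the 2-fold lines.

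Both passenger strands were lower with bait. miR-25-5p had 3 counts with bait (2.86 RPM, 0.591 to 8.37) and 54 without (200.2 RPM, 150.4 to 261), at a ratio of 0.0143 (0.00286 to 0.0441). Its counts were fewer in the library that was 3.88 times deeper. miR-92b-5p had 34 counts with bait (32.5 RPM) and 23 without (85.3 RPM), at a ratio of 0.381 (0.218 to 0.677), and DESeq2 size factors put it at 0.510, short of the call.

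The arms of a hairpin compare products of the same precursor, except that miR-92a-3p can also come from MIR92A2 and miR-92a-1-5p cannot. The interval of the ratio of their ratios excluded 1 for miR-25 and miR-32, and included 1 for miR-92b. For miR-92a it excluded 1 only narrowly, with a low bound of 1.09, on 4 and 5 counts of miR-92a-1-5p. miR-25-5p formed 0.0240% of the miR-25 counts with bait (0.00495% to 0.0702%) and 1.36% without (1.02% to 1.77%), so relative to miR-25-3p it was 57.2-fold lower (18.6 to 286). In the miR-92b hairpin the passenger strand formed 0.697% with bait (0.483% to 0.973%) and 0.800% without (0.508% to 1.20%). Its ratio over that of miR-92b-3p was 0.871, and the interval of 0.497 to 1.55 leaves room for a difference in either direction.

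In the miR-32 hairpin the other arm, miR-32-3p, had 14 counts with bait (13.4 RPM) and 4 without (14.8 RPM), too few to test. The guide miR-32-5p outnumbered it 51.6 to 1 with bait and 1.25 to 1 without, and rose 41.3-fold relative to it (7.20 to 210). The higher value of miR-32-5p was thus not shared by the other arm of its precursor. The miR-92a-1-5p arm had 4 counts with bait and 5 without, too few to test. Relative to it miR-92a-3p was 5.08-fold higher (1.09 to 25.6), but the intervals of the arm shares overlapped between the libraries. miR-92a-2-5p, miR-363-5p and miR-367-3p, which has the same seed and is typical of embryonic stem cells, had 0 counts in both libraries.

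**Figure D3:**
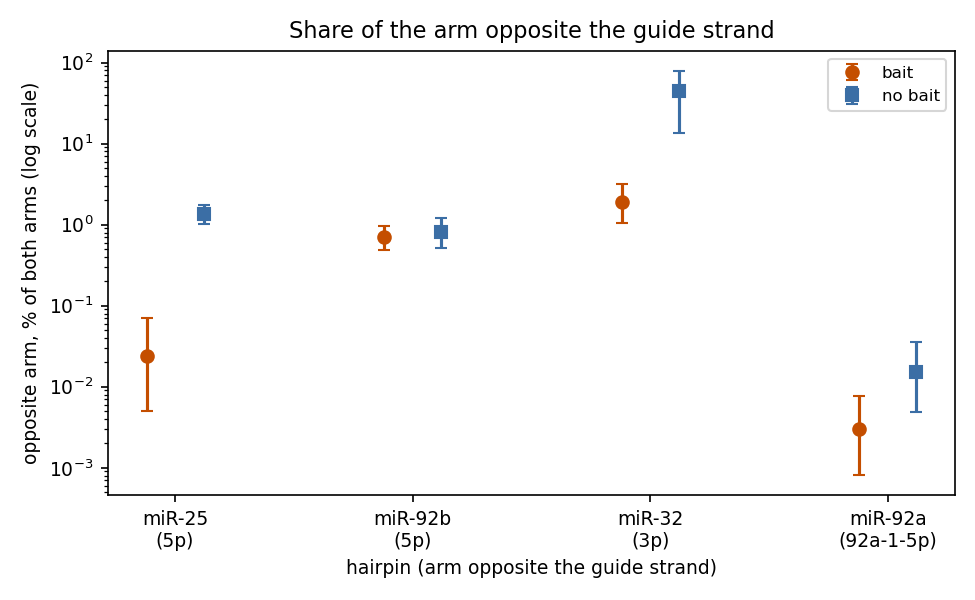
Share of the arm opposite the guide strand among the counts of both arms, on a log axis, with bait (circles, left) and without bait (squares, right); bars are exact 95% counting intervals. The intervals of the libraries are apart for miR-25 (0.0240% with bait, 1.36% without) and for miR-32 (1.90% with bait, 44.4% without, from 4 of 9 counts), and overlap for miR-92b and miR-92a.

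miR-25 and miR-92a are cut from primary transcripts that carry other miRNAs. Of the 8 tested partners 7 were higher with bait, against 39.4% of all tested miRNAs. The minimum of 30 counts is set on both libraries together, and the bait library was 3.88 times deeper. miR-17-5p, miR-18a-5p, miR-19a-3p, miR-19b-3p and miR-106b-5p reached it with their bait counts and held fewer than 30 without bait. A miRNA high with bait passes more easily, so 7 of 8 is a description and no support for a shared rise. The list held 21 arms of the 3 clusters, none of the tested arms was lower (against 26.8% of all tested), and miR-106b-3p passed neither call. The 7 higher partners carry the seeds of the miR-17, miR-18 and miR-19 families and not that of miR-25. The partners from MIR17HG had higher ratios than miR-92a-3p itself. miR-17-5p, known to repress cell cycle and apoptosis genes, was counted 576 times with bait and 26 times without, which is 5.71-fold higher (3.85 to 8.81). Since the 5 tested partners from MIR17HG were called higher and miR-92a-3p was not, miR-92a-3p was lower with bait relative to each. The fall ran from 4.23-fold against miR-20a-5p (3.12 to 5.87) to 13.2-fold against miR-18a-5p (3.55 to 110.04), which had 2 counts without bait. The same counts of miR-92a-3p enter each of these comparisons.

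In the MCM7 cluster the arms fell into separate patterns. miR-106b-5p had 655 counts with bait and 2 without, and miR-93-5p had 630 with bait and 54 without (ratio 3.00, 2.27 to 4.04). Relative to miR-93-5p, miR-25-3p was 3.67-fold lower with bait (2.77 to 4.95), and relative to miR-106b-5p 103-fold lower (28.4 to 852). It moved with miR-106b-3p, which had 972 counts with bait and 318 without, at a ratio of the ratios of 1.04 (0.909 to 1.19). So miRNAs of the same intron included one at a ratio of 84.3 (miR-106b-5p) and one at 0.0143 (miR-25-5p). The 7 listed arms of the X chromosome cluster summed to 23 counts with bait and 1 without, and none was tested.

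**Figure D4:**
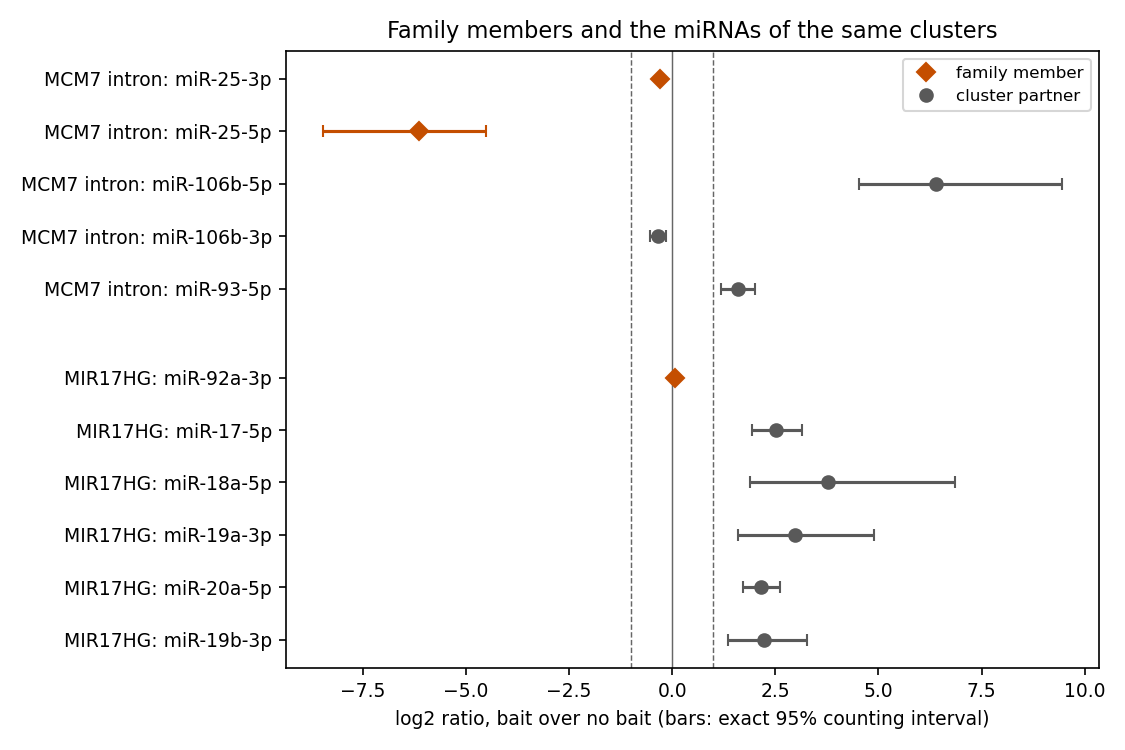
Log2 ratio of bait over no bait for tested members (diamonds) and tested miRNAs of the same cluster (circles), by cluster; bars are exact 95% counting intervals and dashed lines mark 2-fold. The 5 partners of miR-92a-3p lie to the right of the 2-fold line, and miR-25-3p and miR-106b-3p lie together between the 2-fold lines.

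Base composition differed between the members. G and C made up 31.8% of miR-32-5p, a content it shares with other tested miRNAs (let-7f-5p and miR-98-5p passed neither call, and the rest of them were higher), 50.0% of miR-25-3p, 54.5% of miR-92a-3p and 63.6% of miR-92b-3p. They made up 57.1% of miR-25-5p and 72.7% of miR-92b-5p. miR-32-5p, with the least G and C, had the highest ratio, but the lowest ratio was that of miR-25-5p and not of miR-92b-5p, which had the most, and miR-25-3p lay below miR-92a-3p in both content and ratio. Across the 203 tested miRNAs with a RefSeq sequence, which share the same libraries, Spearman's rho between this content and the log2 ratio was -0.30 (Pearson's r -0.31), and rho was -0.28 without the 6 members. The median was 45.5% in the 81 higher miRNAs with a sequence and 52.4% in the 51 lower ones. The part of base composition in the members' ratios was not tested.

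**Figure D5:**
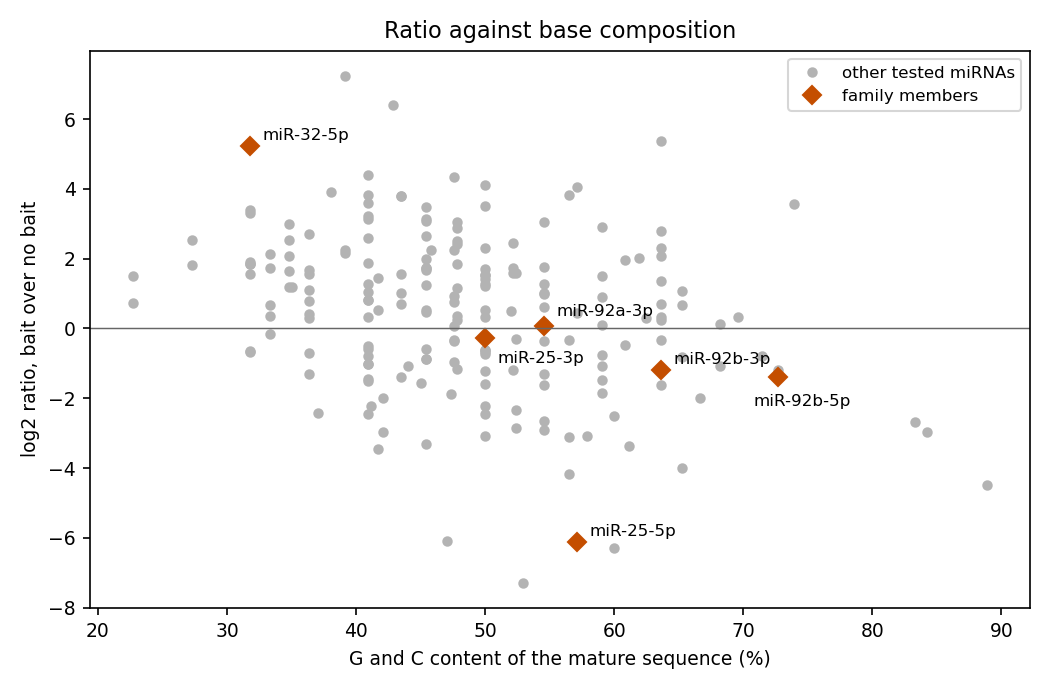
Log2 ratio of bait over no bait against the G and C content of the mature sequence, for 197 other tested miRNAs (grey) and 6 members (orange). miR-32-5p lies at 31.8% and a log2 ratio of 5.22, and miR-92b-5p at 72.7% and -1.39; the spread at any one content is wide.

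The annotated MACC1-AS1 transcript (ENSG00000228598.1, chromosome 7, 20141916 to 20153531, plus strand, GRCh38) is 639 nt long, and no seed match for any member was found in it. The letters searched for the guide strands were TGCAAT (pairing with bases 2 to 7), GTGCAA (bases 3 to 8), GTGCAAT (bases 2 to 8) and GTGCAATA, on the sense strand of the transcript, where the longer ones contain the shorter. Among 8876 other long non-coding RNA genes, cut to the same length from the 5′ end, TGCAAT was found in 14.8%, GTGCAA in 13.0%, GTGCAAT in 3.99% and GTGCAATA in 0.394%. For miR-25-5p the letters CTCCGCC and for miR-92b-5p CCGTCCC were also absent, and they occur in 6.25% and 2.47% of the same genes. This says only that these letters are not in this transcript. The isoform used as bait and its MS2 part were not analysed here.

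The best pairing of each whole member with the transcript was computed as the minimum free energy of the duplex. From the weakest on, it was -10.5 kcal/mol for miR-32-5p (ratio 37.2), -13.1 for miR-92b-3p (0.437), -14.7 for miR-363-3p (untested) and -15.3 for miR-25-3p (0.819). It was -15.5 kcal/mol for miR-92a-3p (1.05), -16.2 for miR-92b-5p (0.381) and -18.3 for miR-25-5p (0.0143). The median of the 203 tested miRNAs was -15.3 kcal/mol. Across them Spearman's rho of this energy with the log2 ratio was 0.24 and with the G and C content -0.42. A more negative energy is a stronger pairing, so by the sign of the first rho weaker pairing went with a higher ratio. The part of this pairing in the members' ratios was not tested.

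Outside the family, the miRNA nearest in the plane of log2 RPM with and without bait was found for each tested member over the 2 libraries. For miR-32-5p it was miR-106b-5p of the MCM7 cluster (distance 1.33 in log2 units), for miR-25-5p miR-4448 (0.72, with 4 counts with bait and 81 without), and for miR-92b-5p miR-125a-3p (0.44). For miR-92a-3p it was miR-21-5p (0.51), for miR-25-3p let-7f-5p (0.34) and for miR-92b-3p miR-10a-5p (0.75, with a ratio of 0.383).

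In the authors' deposited table the log2 fold change was 5.22 for miR-32-5p (p = 2.21e-09) and -6.13 for miR-25-5p (p = 2.26e-09). The authors' deposited table gave p-values of 0.116 for miR-92b-3p, 0.131 for miR-92b-5p, 0.736 for miR-92a-3p and 0.838 for miR-25-3p. The test behind the authors' deposited table is not named, it rests on the same 2 libraries, and its log2 fold change of 8.58 for miR-363-3p comes from 4 counts against 0.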

How the data were processed

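Small RNAs retained on resin with or without MACC1-AS1-MS2 were sequenced from MDA231 lysate, 1 library each. The authors deposited whole-number counts per mature miRNA, and a normalized value that is an RPM (count over the library total, largest deviation 0.00994 RPM). The authors' deposited comparison holds a log2 fold change and a p-value of an unnamed test; 4 columns of sample values in it were not used. Per the submitters' processing notes BWA was used. Version, miRNA reference, build and trimming: not given in the sources used here. miR-92a-3p, annotated at 2 loci, had an odd count without bait (33027) and an even one with bait (134304). This does not settle whether its reads were counted once per locus.

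Counts were scaled by library totals. Ratios have exact conditional binomial intervals, ratios of ratios exact conditional odds-ratio intervals (scipy 1.17.1, 15 pairs), and shares Clopper-Pearson intervals, all at 95%. The call rule was tested on simulated data. With 1 library per group no count model was fitted; edgeR 4.0.16 and DESeq2 1.42.0 gave alternative scaling factors only. Duplex energies are from RNAduplex (ViennaRNA 2.7.2). Mature sequences are from RefSeq, in which 203 of 231 tested miRNAs were matched by name (87.9%), including all members. Coordinates are GRCh38, and the hairpins have the same ones in GENCODE 29. The text names all members, opposite arms, cluster partners and the nearest miRNA per member. Members and lists were chosen with earlier results of these data known.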

Additional observations from a re-analysis of the deposited data

How the results depend on the processing

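Of 128 alternative values 108 were close to the main ones: a ratio kept its direction and call, a value with no call moved within its counting interval, or a count of calls stayed within 1.5 times. Such counts still lost calls. An interval bound beyond 2-fold left 2 lower members, and 64 higher and 42 lower miRNAs, and DESeq2 size factors 44 lower miRNAs. Many of the 108 could hardly differ, so their number does not measure stability. The deposited normalized values are the same counts over the same totals, and the 7 members sum to nearly the guide strands alone. Totals without the 7 members shifted the median log2 ratio by -0.004. Adding 0.5 counts to ratios of ratios was judged against their own, often wide, intervals. DESeq2 size factors left 1 member lower in place of 3, with miR-92b-3p at 0.586 and miR-92b-5p at 0.510, and turned miR-25-3p to 1.10, the summed guide strands to 1.32 (0.986 with totals) and all members summed to 1.32. TMM factors gave 1.10 for the summed guide strands and 1.09 for all members. Totals without the 5 most abundant miRNAs turned miR-92a-3p to 0.958. These follow from the changed factor, which shifted the median log2 ratio of all tested miRNAs by 0.42 (DESeq2), 0.15 (TMM) and -0.13 (5 most abundant left out). A minimum of 100 counts left 1 lower member of 4 tested, and 59 higher and 37 lower of 146 miRNAs. No count filter gave 100 lower of 715. Without miR-92a-3p, which is left out of the sum by construction, miR-25-3p formed 69.2% of the guide strands with bait and 57.9% without, miR-92b-3p 26.8% with bait and 42.0% without, miR-32-5p 4.00% with bait and 0.0737% without, and miR-363-3p 0.0222% with bait. That sum, chosen after the data were seen, had a ratio of 0.686. miR-32-5p and miR-25-5p kept their calls under each of the 4 scalings. No paired analysis was possible because each group holds 1 library, and for the same reason no replicate could be left out. The 5 counts of miR-32-5p without bait and the 3 of miR-25-5p with bait limit those ratios.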

Other observations

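Seed matches to the annotated MACC1-AS1 transcript, found for no member of the family, were rare among the tested miRNAs as a whole. Of the 203 with a RefSeq sequence, 4 had a match to bases 2 to 8, and these are named with their values known. miR-18a-5p, made from the same transcript as miR-92a-3p, had 107 counts with bait and 2 without. miR-210-3p, a hypoxia miRNA, had 268 with bait and 14 without (ratio 4.93, 2.89 to 9.14), and miR-193b-3p 87 with bait and 0 without. miR-143-3p was counted 251 times with bait and 82 times without (ratio 0.788, 0.612 to 1.02). A match to bases 2 to 7 was found for 19 of the 203, of which 12 were higher and 3 lower with bait, beside 81 higher and 51 lower of all 203. These counts are a description of the 2 libraries and carry no test.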
